A study of Homo sapiens with 4 samples.

Results

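The kinetochore and spindle checkpoint genes were followed in DaroR cells after knockdown of the lncRNA LOC730101. The genes were taken by name from the count table, as the CENP genes with a single letter from A to X and 26 further genes named one by one, which gave 47 of the 60606 genes listed. DaroR is a line of LNCaP prostate cancer cells grown for months with the antiandrogen darolutamide until resistant, and all 4 libraries come from this line. In 2 libraries the cells had received control siRNA (siControl), and in the other 2 a pool of siRNAs against LOC730101 (siLOC730101), with darolutamide kept in the medium of DaroR cells. The data therefore describe 1 resistant line and 1 siRNA pool, and nothing in the labels says whether the replicates were separate cultures, so that the p-values measure the spread between these libraries, which may be technical.

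The kinetochore is the protein assembly that joins each chromosome to the microtubules of the spindle in mitosis. Its inner part is built on nucleosomes holding the histone variant CENP-A, and its outer part, the KMN network, binds microtubules. Kinetochores without correct attachment recruit the checkpoint proteins, which hold CDC20 and so keep the anaphase-promoting complex from starting anaphase, while the kinase AURKB in the chromosomal passenger complex releases wrong attachments. Most of these genes are transcribed in G2 and mitosis and stay low in resting cells, so that bulk RNA cannot tell fewer dividing cells apart from less of each RNA in a dividing cell.

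The libraries held between 39213498 and 53368158 counts, among which 66.0 to 70.1% of the gene counts from 1 to 20 were even. Mates of a pair may thus have been counted apart, and the fragments may be fewer than the counts. By total counts, both siLOC730101 libraries were smaller than both siControl libraries. LOC730101, which is ENSG00000216775 in the table, had 47.4 and 50.6 CPM in siControl and 15.4 and 17.9 CPM in siLOC730101, a log2 fold change of -1.56 ± 0.12 (edgeR, adjusted p = 4.34e-06). Values are CPM, the counts of a gene scaled to equal library totals with TMM factors, log2 fold changes compare siLOC730101 to siControl and stand with ± their standard error from the edgeR quasi-likelihood fit, and p-values were adjusted by Benjamini-Hochberg over all 19349 genes tested. The luminal prostate markers KLK3, KLK2, TMPRSS2, FOLH1, HOXB13, KRT8 and KRT18 lay between 334 and 1916 CPM in every library. Of 10 markers of basal, fibroblast, leukocyte and neuroendocrine cells, 8 did not pass the expression filter, of which KRT5, TP63, COL1A2, LUM, PTPRC, CHGA and INSM1 were at 0 counts in all 4 libraries and DCN had 2 counts in 1 library. COL1A1 and SYP were tested, at 14.7 and 11.02 CPM in siControl and 10.98 and 12.2 CPM in siLOC730101 and at 2.37 and 2.24 CPM in siControl and 2.09 and 2.95 CPM in siLOC730101, and the 10 markers summed to 17.4 and 13.4 CPM without TMM scaling in siControl and to 13.1 and 14.6 in siLOC730101. Permuting 2 against 2 libraries exactly could give no two-sided p below 0.333 for any gene, so that the model fitted over all genes was used.

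All 47 genes passed the expression filter, and 39 of them (83.0%) had a log2 fold change below 0. This was so for 50.4% of all genes tested. The median log2 fold change was -0.17 over the 47 genes and -0.0021 over all genes, so that the differences were small against the reduction of LOC730101 itself. None of the 47 genes passed an adjusted p of 0.05 in edgeR, with 0 lower and 0 higher, where 0.0724% of all genes were called lower and 0.212% were called higher. At an unadjusted p under 0.05 in the same test, 11 of the 47 genes were lower and 1 was higher, beside 4.39% and 6.43% of all genes. In DESeq2, 0 genes were lower and 1 gene, CENPX, was higher with an adjusted p under 0.05, beside 0.663% lower and 2.41% higher of the 9653 genes to which it gave an adjusted p. It gave none to 8 of the 47 genes, SGO1, CENPS, CENPA, SPC25, CENPW, MAD1L1, CENPP and CENPV. Both siLOC730101 libraries lay below both siControl libraries for 24 of the 47 genes (20.5% of all genes tested) and above them for 2 genes, CENPX and NSL1 (21.3% of all genes tested). The groups overlapped for the remaining 21 genes.

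The normalized CPM of the 47 genes summed to 1729 and 1799 in siControl and to 1617 and 1689 in siLOC730101, means of 1764 ± 49.3 and 1653 ± 51.0 (SD, n = 2). The lower siControl sum exceeded the higher siLOC730101 sum by 40.3 CPM, less than the 69.8 and 72.1 CPM between the replicates of each group. The sums therefore did not overlap, but the gap between the groups was smaller than the spread within them. Without siControl replicate 2 the median log2 fold change of the genes was -0.11, and without siControl replicate 1 it was -0.21. Leaving out 1 library turned the log2 fold change of 34 of the 47 genes or moved it by over 1.5 times, and the other 13 were CDCA8, CENPF, CENPO, BUB1, SGO2, SGO1, CENPJ, KNL1, PLK1, CENPN, TPX2, AURKA and CENPI. Among the 28 genes that share no exon bases with another gene of the table, 23 were below 0, with a median of -0.18.

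**Figure D1:**
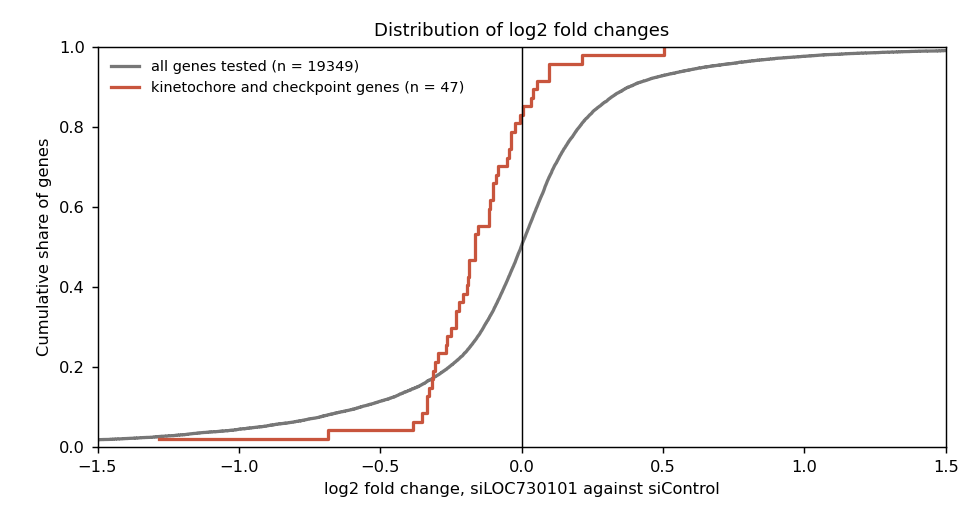
Cumulative share of genes (y axis) against the log2 fold change of siLOC730101 over siControl (x axis), for the 47 kinetochore and checkpoint genes and for the 19349 genes tested. Above a share of about 0.2 the line of the 47 genes lies to the left of the other, with 83.0% of them below 0 against 50.4% of all genes.

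Promoters of many mitotic genes hold a short element called the cell cycle genes homology region (CHR), which the DREAM complex and its relatives bind. It was searched as TTTGAA or TTCGAA on both strands of the RefSeq promoter windows on GRCh38.p14, which run from 250 bases before to 50 bases after a gene's start. TTCGAA reads the same on both strands, and both motifs may overlap CCAAT or each other. A window was found for 37 of the 47 genes, and 18 of the 37 (48.6%) held the letters. The share was 15.4% of 12236 tested genes with a window and 19.5% of 27305 genes in all. CCAAT, the box bound by NF-Y, was found in 24 of the 37 genes (64.9%) and in 42.5% of the tested genes. A match of letters is not a site shown to be used in these cells.

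Shown here are 100 bases, from 80 before the start, of 5 promoters with the letters near the start, chosen after the values were seen to cover the shugoshin, checkpoint kinase, passenger complex and PLK1 genes described next, and of CENPX, the gene with the highest log2 fold change, which has none. The letters of the CHR are in capitals.
SGO1, chr3:20186187-20186286, minus strand: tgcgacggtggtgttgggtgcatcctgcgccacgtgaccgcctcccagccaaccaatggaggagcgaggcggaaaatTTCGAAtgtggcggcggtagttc
BUB1, chr2:110678044-110678143, minus strand: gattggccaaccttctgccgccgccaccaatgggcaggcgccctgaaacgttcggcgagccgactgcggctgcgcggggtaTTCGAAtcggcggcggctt
CDCA8, chr1:37692436-37692535, plus strand: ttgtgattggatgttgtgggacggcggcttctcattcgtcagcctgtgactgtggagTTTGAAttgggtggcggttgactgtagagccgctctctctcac
PLK1, chr16:23678809-23678908, plus strand: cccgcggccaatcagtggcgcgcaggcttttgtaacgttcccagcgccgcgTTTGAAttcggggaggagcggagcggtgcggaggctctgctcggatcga
INCENP, chr11:62123931-62124030, plus strand: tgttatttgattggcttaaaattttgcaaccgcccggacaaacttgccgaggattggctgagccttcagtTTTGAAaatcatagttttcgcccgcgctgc
CENPX, chr17:82022859-82022958, minus strand: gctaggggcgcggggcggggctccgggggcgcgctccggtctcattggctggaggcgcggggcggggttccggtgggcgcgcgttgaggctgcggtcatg

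The letters start 3 bases before the start site in SGO1 and 10, 23 and 29 bases before it in INCENP, CDCA8 and PLK1, and BUB1 holds them 1 base after it. Of the 18 genes with the letters, 13 had both siLOC730101 libraries below both siControl libraries, beside 20.5% of all genes tested. Of the same 18, 16 had a log2 fold change below 0, beside 50.4% of all genes, with a median of -0.19. Of the 19 genes with a window and without the letters, 4 had both siLOC730101 libraries lower, near the share over all genes. Of these 19, 14 were below 0, with a median of -0.11. CENPX and NSL1, the 2 genes with both siLOC730101 libraries above both siControl libraries, were among the 19. The 19 also include MAD1L1, CENPS and CENPP, the lowest of the 47 genes in mean normalized count (21.0, 97.2 and 174), whose groups overlapped. Among the genes without a window, CENPL, TPX2, CENPJ, TTK, KNL1, AURKA and CENPH had both siLOC730101 libraries lower. The groups overlapped for BUB3, CENPM and BIRC5, which also had no window. The counts with and without the letters describe the genes, and the difference was not tested. No values are given for the other tested genes with the letters.

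The shugoshins protect the cohesin that holds sister centromeres together until anaphase, and both were lower in siLOC730101. SGO1, at chr3:20160593-20186206 on GRCh38, had 8.90 and 10.6 CPM in siControl and 5.33 and 6.80 CPM in siLOC730101. Its log2 fold change was -0.69 ± 0.20 (edgeR, adjusted p = 0.175), the lowest of the genes above 50 mean normalized counts. The interval of 95% around it ran from -1.12 to -0.25, and omitting a library at a time moved it from -0.87 to -0.51. An antisense gene, SGO1-AS1, covers 15.8% of the exon bases of SGO1 and had between 0 and 10 counts in a library. SGO2, the shugoshin best known from meiosis, had 21.1 and 23.7 CPM in siControl and 18.3 and 17.8 CPM in siLOC730101 and a log2 fold change of -0.32 ± 0.13 (edgeR, adjusted p = 0.361). In both genes every siLOC730101 library lay below every siControl library, as in 20.5% of all genes tested, and neither gene passed the threshold.

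The chromosomal passenger complex joins the kinase AURKB to its scaffold INCENP and to BIRC5 (survivin) and CDCA8 (borealin), which place it at the centromere. All 4 of its genes had a log2 fold change below 0, from -0.31 to -0.044. CDCA8 had 29.8 and 30.5 CPM in siControl and 23.3 and 25.2 CPM in siLOC730101, a log2 fold change of -0.31 ± 0.11 (edgeR, adjusted p = 0.287). INCENP had 37.4 and 41.4 CPM in siControl and 35.6 and 33.4 CPM in siLOC730101, and both siLOC730101 libraries were again the lower ones, with -0.19 ± 0.11 (edgeR, adjusted p = 0.555) and -0.11 without siControl replicate 2. The kinase itself did not separate the groups. AURKB had 14.9 and 15.8 CPM in siControl and 11.4 and 16.0 CPM in siLOC730101, so that siLOC730101 replicate 2 was above both siControl libraries, and its log2 fold change of -0.16 ± 0.17 (edgeR, adjusted p = 0.8) was 0.072 without siLOC730101 replicate 1. BIRC5 had 50.5 and 52.7 CPM in siControl and 48.9 and 51.3 CPM in siLOC730101, 4 nearly equal values, with -0.044 ± 0.093 (edgeR, adjusted p = 0.924). The interval for BIRC5 ran from -0.24 to 0.16.

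Among the checkpoint genes, all 7 had a log2 fold change below 0, beside 50.4% of all genes tested. Their median was -0.19 (-0.057 without siControl replicate 2). Of the 7, 4 had both siLOC730101 libraries below both siControl libraries, beside 20.5% of all genes tested. BUB1, the kinase that docks on KNL1 and marks the centromere for the shugoshins, had 32.8 and 34.1 CPM in siControl and 26.9 and 28.7 CPM in siLOC730101, a log2 fold change of -0.27 ± 0.11 (edgeR, adjusted p = 0.366). CDC20, the activator of the anaphase-promoting complex that the checkpoint holds, had 50.3 and 56.3 CPM in siControl and 44.6 and 48.6 CPM in siLOC730101 and -0.19 ± 0.10 (edgeR, adjusted p = 0.516). MAD2L1, which binds CDC20 directly, had 45.6 and 49.4 CPM in siControl and 41.7 and 43.0 CPM in siLOC730101, with -0.17 ± 0.10 (edgeR, adjusted p = 0.583). In these 3 genes every siLOC730101 library lay below every siControl library, and leaving out siControl replicate 2 gave -0.11 for CDC20 and -0.10 for MAD2L1. TTK, the kinase that starts checkpoint signalling, had 16.2 and 18.3 CPM in siControl and 16.0 and 15.8 CPM in siLOC730101, where siLOC730101 replicate 1 nearly met siControl replicate 1, and a log2 fold change of -0.12 ± 0.14 (edgeR, adjusted p = 0.839) that moved to -0.025 when siControl replicate 2 was omitted.

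BUB1B and BUB3 stand in one complex with MAD2L1 and CDC20, the mitotic checkpoint complex, and both overlapped between the groups. BUB1B had 25.8 and 32.0 CPM in siControl and 26.1 and 23.3 CPM in siLOC730101, with a log2 fold change of -0.22 ± 0.13 (edgeR, adjusted p = 0.577) that was -0.057 without siControl replicate 2. BUB3, which is also expressed outside mitosis, had 179.8 and 186 CPM in siControl and 170.0 and 187 CPM in siLOC730101, with -0.039 ± 0.078 (edgeR, adjusted p = 0.921). MAD1L1, which carries MAD2L1 to the kinetochore, had only 14 and 50 counts in siControl and 5 and 16 in siLOC730101. Its log2 fold change of -1.28 ± 0.92 (edgeR, adjusted p = 0.677) was the lowest of the 47 genes, but its interval ran from -3.24 to 0.68 and it was 0.065 without siControl replicate 2. A second gene of the table, ENSG00000286192, shares 43.2% of its exon bases on the same strand and was listed at 0 counts in all libraries. By default featureCounts leaves out reads that overlap more than 1 gene, so that the level of MAD1L1 in this table is uncertain.

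AURKA, TPX2 and PLK1 act at spindle poles and in spindle assembly. In all 3 genes both siLOC730101 libraries lay below both siControl libraries, as in 20.5% of all genes tested. AURKA, the centrosomal kinase, had 25.1 and 26.6 CPM in siControl and 21.8 and 21.7 CPM in siLOC730101, with -0.25 ± 0.12 (edgeR, adjusted p = 0.462). TPX2, its activator on the spindle, had 68.0 and 73.3 CPM in siControl and 64.4 and 59.6 CPM in siLOC730101 and -0.19 ± 0.091 (edgeR, adjusted p = 0.484). PLK1, a kinase of mitotic entry and of the kinetochore, had 44.9 and 45.1 CPM in siControl and 39.9 and 40.9 CPM in siLOC730101 and -0.16 ± 0.10 (edgeR, adjusted p = 0.608). The differences were close to each other in size, from -0.25 to -0.16, and none passed the threshold. The genes of the fibrous corona, the outermost layer of the kinetochore, also had lower counts per library total in both siLOC730101 libraries, and neither passed the threshold. CENPE, a kinesin that carries chromosomes to the spindle equator, had 38.2 and 36.1 CPM in siControl and 33.7 and 26.7 CPM in siLOC730101, a log2 fold change of -0.30 ± 0.12 (edgeR, adjusted p = 0.365). Its siLOC730101 replicates stood farther apart than its siControl replicates. Its log2 fold change was -0.47 (adjusted p = 0.0173, edgeR) without siLOC730101 replicate 1 and -0.14 without siLOC730101 replicate 2. CENPF, a large coiled-coil protein of the corona, had 117 and 116 CPM in siControl and 107 and 98.4 CPM in siLOC730101, with -0.19 ± 0.082 (edgeR, adjusted p = 0.421).

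**Figure D2:**
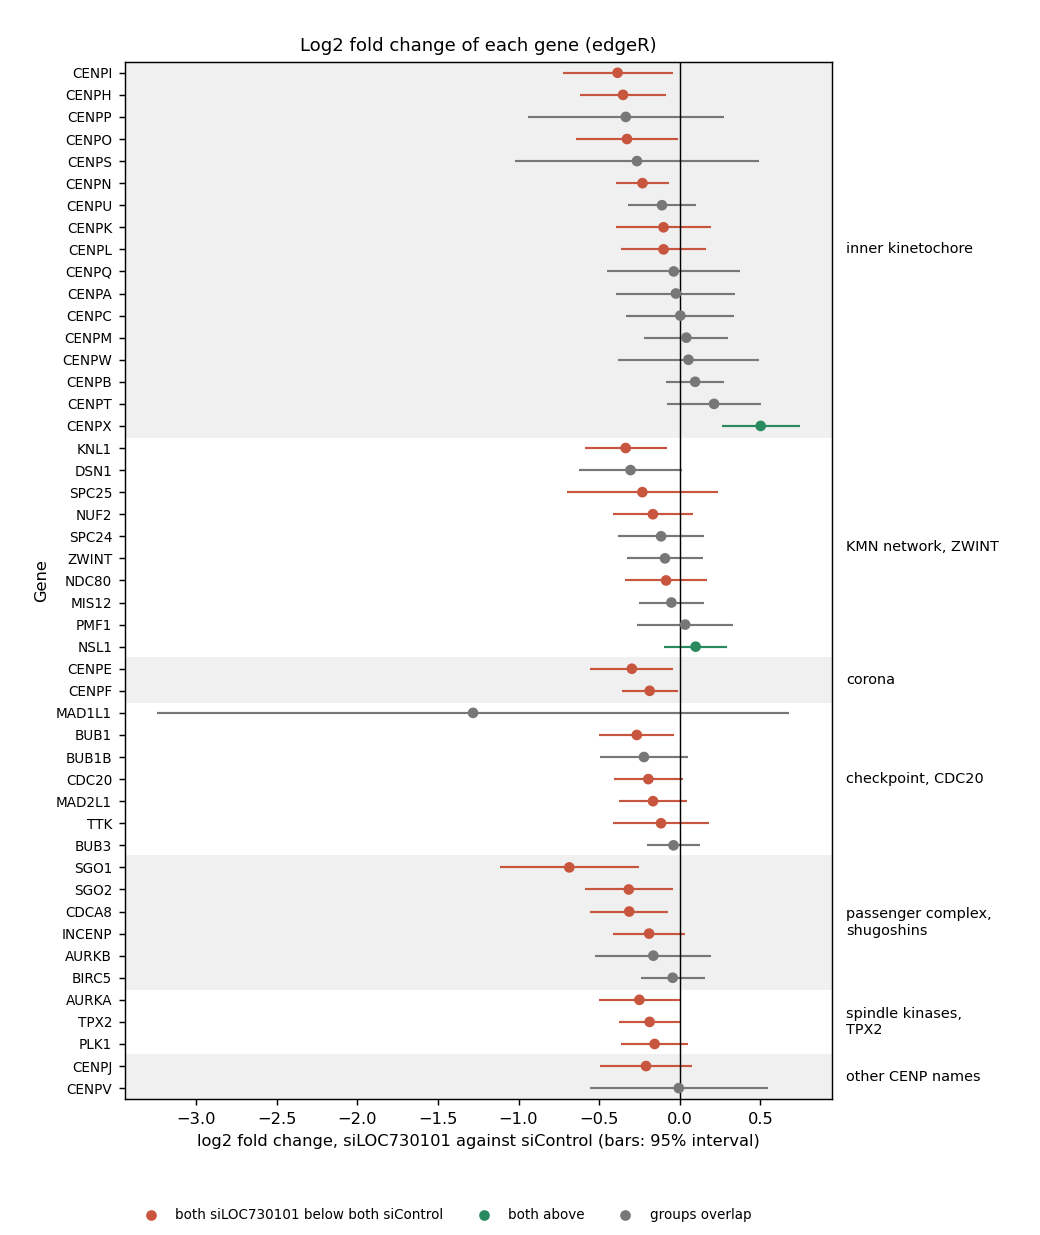
Log2 fold change of siLOC730101 over siControl (x axis) for each of the 47 genes (y axis), grouped by role, with points at the edgeR estimate and bars for its 95% interval. Colours mark the 24 genes with both siLOC730101 libraries below both siControl libraries, the 2 genes with both above, and the 21 genes that overlap; MAD1L1 has the widest bar and CENPX the highest value.

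The KMN network is made of KNL1, the MIS12 complex and the NDC80 complex, and of its genes and ZWINT, which binds it, 8 of 10 were below 0, with NSL1 and PMF1 above. The median was -0.10, and it moved to -0.028 when siLOC730101 replicate 1 was omitted and to -0.21 when siLOC730101 replicate 2 was. KNL1, the platform for BUB1 and BUB3, had 28.0 and 29.6 CPM in siControl and 24.4 and 21.3 CPM in siLOC730101, a log2 fold change of -0.34 ± 0.12 (edgeR, adjusted p = 0.281), the lowest of the network. The 4 genes of the NDC80 complex, whose heads bind the microtubule, were all below 0 by small amounts. NDC80 had 23.2 and 23.9 CPM in siControl and 21.5 and 22.9 CPM in siLOC730101 and -0.084 ± 0.12 (edgeR, adjusted p = 0.876), and its partner NUF2 had 25.1 and 27.1 CPM in siControl and 23.1 and 23.5 CPM in siLOC730101 and -0.17 ± 0.12 (edgeR, adjusted p = 0.666). SPC25 had 5.85 and 6.64 CPM in siControl and 4.89 and 5.74 CPM in siLOC730101, with -0.23 ± 0.22 (edgeR, adjusted p = 0.781). In these 3 genes both siLOC730101 libraries lay below both siControl libraries, as in 20.5% of all genes tested. Leaving out siLOC730101 replicate 1 gave -0.029 for NDC80 and -0.11 for SPC25, and leaving out siControl replicate 2 gave -0.11 for NUF2. In SPC24 they did not, with 26.3 and 27.1 CPM in siControl and 22.2 and 27.0 CPM in siLOC730101 and a log2 fold change of -0.12 ± 0.12 (edgeR, adjusted p = 0.812).

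The MIS12 complex ties the inner kinetochore to KNL1 and NDC80, and its 4 genes were not shifted together. MIS12 had 47.2 and 49.8 CPM in siControl and 46.3 and 47.3 CPM in siLOC730101, with -0.052 ± 0.095 (edgeR, adjusted p = 0.91). DSN1 had 22.9 and 32.6 CPM in siControl and 21.9 and 23.0 CPM in siLOC730101 and a log2 fold change of -0.31 ± 0.15 (edgeR, adjusted p = 0.486), which moved with siControl replicate 2, as it was -0.025 without that library and -0.54 without siControl replicate 1. PMF1 had 15.4 and 16.3 CPM in siControl and 15.7 and 16.7 CPM in siLOC730101, with 0.034 ± 0.14 (edgeR, adjusted p = 0.965), and shares 23.3% of its exon bases with the readthrough gene PMF1-BGLAP. NSL1 had 52.5 and 55.5 CPM in siControl and 57.5 and 58.1 CPM in siLOC730101, above siControl in both libraries but with a log2 fold change of only 0.10 ± 0.091 (edgeR, adjusted p = 0.772), or 0.060 without siControl replicate 1. ZWINT, a partner of KNL1, had 42.2 and 40.1 CPM in siControl and 34.8 and 42.4 CPM in siLOC730101 and -0.091 ± 0.11 (edgeR, adjusted p = 0.844), and its groups overlapped.

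The inner kinetochore was the most divided group, with 11 of 17 genes below 0 and a median log2 fold change of -0.10, which moved to -0.18 when siControl replicate 1 was omitted and to -0.012 when siControl replicate 2 was. CENPA, the histone H3 variant that defines the centromere, had 10.5 and 10.5 CPM in siControl and 9.22 and 11.5 CPM in siLOC730101, with -0.024 ± 0.17 (edgeR, adjusted p = 0.985). CENPC, which binds the CENP-A nucleosome and recruits the MIS12 complex, had 12.3 and 13.5 CPM in siControl and 13.8 and 11.98 CPM in siLOC730101, with 0.0037 ± 0.16 (edgeR, adjusted p = 0.998). CENPB, which binds a motif in centromeric satellite DNA, had 162 and 154 CPM in siControl and 157 and 180.1 CPM in siLOC730101, with 0.10 ± 0.083 (edgeR, adjusted p = 0.753). The groups overlapped for these 3 genes at the base of the kinetochore, and CENPC was at -0.026 with upper-quartile factors and -0.032 with library sizes alone.

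The CENP-H-I-K-M and CENP-L-N proteins bind next to CENP-A and CENP-C, and 5 of their 6 genes were below 0. CENPI had 13.9 and 15.8 CPM in siControl and 12.4 and 10.4 CPM in siLOC730101, a log2 fold change of -0.39 ± 0.16 (edgeR, adjusted p = 0.38), and CENPH had 28.2 and 28.4 CPM in siControl and 20.1 and 24.3 CPM in siLOC730101, with -0.35 ± 0.12 (edgeR, adjusted p = 0.274). In both genes each siLOC730101 library was below each siControl library, as in 20.5% of all genes tested. CENPK had 16.1 and 18.1 CPM in siControl and 16.1 and 15.8 CPM in siLOC730101, with -0.10 ± 0.14 (edgeR, adjusted p = 0.871), and CENPM had 21.4 and 22.5 CPM in siControl and 21.5 and 23.6 CPM in siLOC730101, with 0.041 ± 0.12 (edgeR, adjusted p = 0.951), so that only CENPM of these 4 was above 0. Leaving out siControl replicate 2 moved CENPK to -0.012, and leaving out siLOC730101 replicate 1 moved CENPH to -0.21. CENPN had 145 and 137 CPM in siControl and 122 and 118 CPM in siLOC730101, with -0.23 ± 0.078 (edgeR, adjusted p = 0.255), and CENPL had 22.6 and 21.7 CPM in siControl and 21.5 and 19.8 CPM in siLOC730101, with -0.10 ± 0.12 (edgeR, adjusted p = 0.844). Genes of other names cover 23.1% of the exon bases of CENPN and 4.5% of those of CENPL, which was at -0.046 without siLOC730101 replicate 2.

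In the CENP-O-P-Q-U part, all 4 genes were below 0 and 1 of them, CENPO, separated the groups. CENPO had 15.7 and 16.6 CPM in siControl and 12.1 and 13.7 CPM in siLOC730101, with -0.33 ± 0.15 (edgeR, adjusted p = 0.441). ADCY3 and PTRHD1 lie on the opposite strand over part of CENPO, which shares 31.6% of its exon bases, and their own log2 fold changes were 0.0065 and 0.25. CENPU had 54.1 and 62.9 CPM in siControl and 54.7 and 53.6 CPM in siLOC730101, with -0.11 ± 0.10 (edgeR, adjusted p = 0.759). CENPQ had 9.80 and 15.3 CPM in siControl and 12.2 and 12.2 CPM in siLOC730101, with the siControl replicates farther apart than the groups, and -0.037 ± 0.19 (edgeR, adjusted p = 0.975). CENPP had 3.92 and 4.70 CPM in siControl and 4.16 and 2.66 CPM in siLOC730101, with -0.33 ± 0.29 (edgeR, adjusted p = 0.743) and -0.052 without siLOC730101 replicate 2, and shares 43.2% of its exon bases with other genes, mostly IPPK on the opposite strand.

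CENPT, CENPW, CENPS and CENPX form a complex of histone folds that contacts DNA, and 3 of its 4 genes were above 0. CENPX, at chr17:82018702-82024107 on GRCh38, had 59.6 and 66.1 CPM in siControl and 76.8 and 101 CPM in siLOC730101, means of 62.9 ± 4.55 and 89.0 ± 17.3 (SD, n = 2). Both siLOC730101 libraries lay above both siControl libraries, and the replicates of siLOC730101 differed more from each other than the nearest libraries of the groups. The log2 fold change of CENPX was 0.50 ± 0.11 (edgeR, adjusted p = 0.0868), the highest of the 47 genes, with an interval from 0.26 to 0.75. It passed in DESeq2 (adjusted p = 0.0076). Omitting a library at a time moved it from 0.29 without siLOC730101 replicate 2 to 0.70 without siLOC730101 replicate 1. It was 0.58 without siControl replicate 2. With 1 library left in a group, the fit took its spread from the other group. LRRC45, which overlaps 43 bases of CENPX on the opposite strand, had a log2 fold change of 0.072.

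The groups overlapped for all 3 partners of CENPX. CENPS, its partner also in the FANCM complex of DNA repair, had 2.39 and 2.33 CPM in siControl and 1.56 and 2.37 CPM in siLOC730101, with -0.27 ± 0.36 (edgeR, adjusted p = 0.863). It shares 65.0% of its exon bases with the readthrough gene CENPS-CORT, so that its level is uncertain. CENPT, which reaches out to the NDC80 complex, had 21.5 and 17.5 CPM in siControl and 24.1 and 21.1 CPM in siLOC730101, with 0.21 ± 0.14 (edgeR, adjusted p = 0.624). This log2 fold change moved to 0.078 when siControl replicate 2 was omitted and to 0.37 when siControl replicate 1 was. Genes on the opposite strand cover 20.2% of the exon bases of CENPT. CENPW, bound to CENPT, had 9.14 and 9.27 CPM in siControl and 7.54 and 11.6 CPM in siLOC730101, with the siControl values between those of siLOC730101, and 0.054 ± 0.20 (edgeR, adjusted p = 0.962). The remaining CENP names belong to proteins outside this core. CENPJ, which builds centrioles, had 18.5 and 20.1 CPM in siControl and 17.6 and 15.8 CPM in siLOC730101, with -0.21 ± 0.14 (edgeR, adjusted p = 0.625), and CENPV had 7.34 and 4.51 CPM in siControl and 4.99 and 6.85 CPM in siLOC730101, with -0.0057 ± 0.26 (edgeR, adjusted p = 0.998) and replicates of each group far apart.

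**Figure D3:**
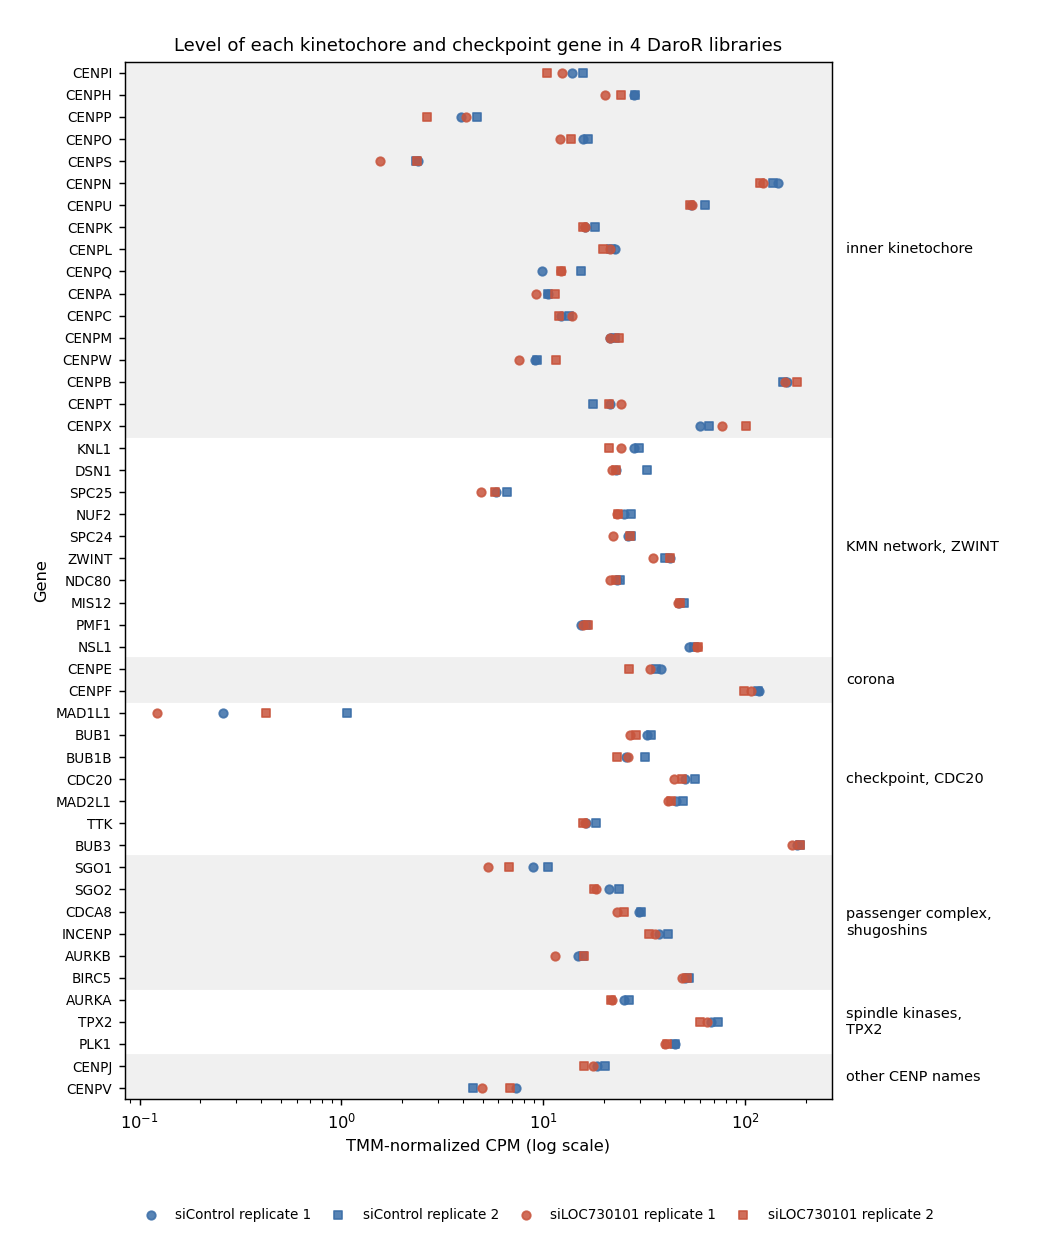
TMM-normalized CPM on a log scale (x axis) of each of the 47 genes (y axis), grouped by role, with 1 point for each of the 2 siControl and 2 siLOC730101 libraries. Most genes lie between 10 and 100 CPM with the 4 points close together; MAD1L1 is at or near 1 CPM or less, and the siLOC730101 points of CENPX lie to the right of its siControl points.

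Levels were compared between genes per kilobase of exon, as the mean CPM per kilobase over the 4 libraries. CENPB (56.5) and CENPX (49.6) were highest. In siControl CENPB had 56.0 and 53.15 and CENPX 39.0 and 43.2, so that CENPB was the higher. In siLOC730101 CENPB had 54.4 and 62.3 and CENPX 50.2 and 66.1, so that their order there is not fixed. CDC20 (24.8), CENPN (23.0) and BUB3 (22.1) followed, with overlapping ranges over the 4 libraries. The lowest were MAD1L1 (0.0672), CENPP (0.414), CENPS (1.24) and CENPC (1.52), and the first 3 of these share over 40% of their exon bases with other genes. Genes of one complex differed in level. In the NDC80 complex, SPC24 had 9.03, NUF2 7.35, NDC80 6.44 and SPC25 3.16 CPM per kilobase, and in the passenger complex BIRC5 had 13.3, CDCA8 11.3, INCENP 8.29 and AURKB 6.47. The exon length of the table joins all annotated isoforms, which lowers these values for genes with long rare exons.

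Genes that work beside the kinetochore were described with lists of the same pathway, none of whose genes passed an adjusted p of 0.05 in edgeR as fitted here, in either direction. DESeq2 called MKI67 lower, beside 0.663% of the 9653 genes to which it gave an adjusted p. The calls in these lists changed with the processing, as given further below. Of 15 genes of the RZZ and SKA complexes and other spindle partners, 13 were below 0, with a median log2 fold change of -0.20 (-0.093 without siControl replicate 2). KNTC1, the large subunit of the RZZ complex that brings dynein to the kinetochore, had 66.1 and 62.3 CPM in siControl and 55.1 and 46.0 CPM in siLOC730101, with -0.34 ± 0.10 (edgeR, adjusted p = 0.175). The extremes of this list were PRC1 (-0.68, standard error 0.57) and NUSAP1 (0.26, standard error 0.88), both at about 1 CPM or less and both sharing most of their exon bases with another gene. Of 6 genes of CENP-A deposition, 5 were below 0, with a median of -0.11, from HJURP, the chaperone of CENP-A, at -0.19 ± 0.11 (edgeR, adjusted p = 0.583), to RBBP7 at 0.16 ± 0.076 (edgeR, adjusted p = 0.471). Of 18 genes of cohesin, condensin and their regulators, 15 were below 0, with a median of -0.13. They ran from ESPL1, the separase that cuts cohesin, at -0.34 ± 0.13 (edgeR, adjusted p = 0.326), to NCAPD3 at 0.13 ± 0.10 (edgeR, adjusted p = 0.684).

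The list of the anaphase-promoting complex, the target of the checkpoint, lay mostly above 0. It also holds FZR1, FBXO5, UBE2C and UBE2S, which act with or on the complex. Of the 18 genes listed, 12 were above 0, with a median of 0.065. That median was 0.039 without siLOC730101 replicate 1 and 0.028 with library sizes alone. ANAPC10, a subunit that helps to bind substrates, was highest, with 1.67 and 2.12 CPM in siControl and 2.82 and 4.21 CPM in siLOC730101 and 0.90 ± 0.33 (edgeR, adjusted p = 0.296), and shares 22.6% of its exon bases with ENSG00000285713, which was listed at 0 counts. FBXO5, the inhibitor EMI1, was lowest of the list at -0.30 ± 0.13 (edgeR, adjusted p = 0.425). Of 14 genes of mitotic entry and proliferation, 13 were below 0, with a median of -0.13. MKI67, the gene of the proliferation marker Ki-67, had 89.8 and 92.4 CPM in siControl and 75.4 and 68.0 CPM in siLOC730101, with -0.35 ± 0.087 (edgeR, adjusted p = 0.116), the lowest of this list, and CDC25B was highest at 0.021 ± 0.10 (edgeR, adjusted p = 0.97). MKI67, the extreme of its list, was lower than the median of the kinetochore genes (-0.17). The median of its list, -0.13, was above that of the kinetochore genes. The part of MKI67 in the values of the kinetochore genes was not tested.

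**Figure D4:**
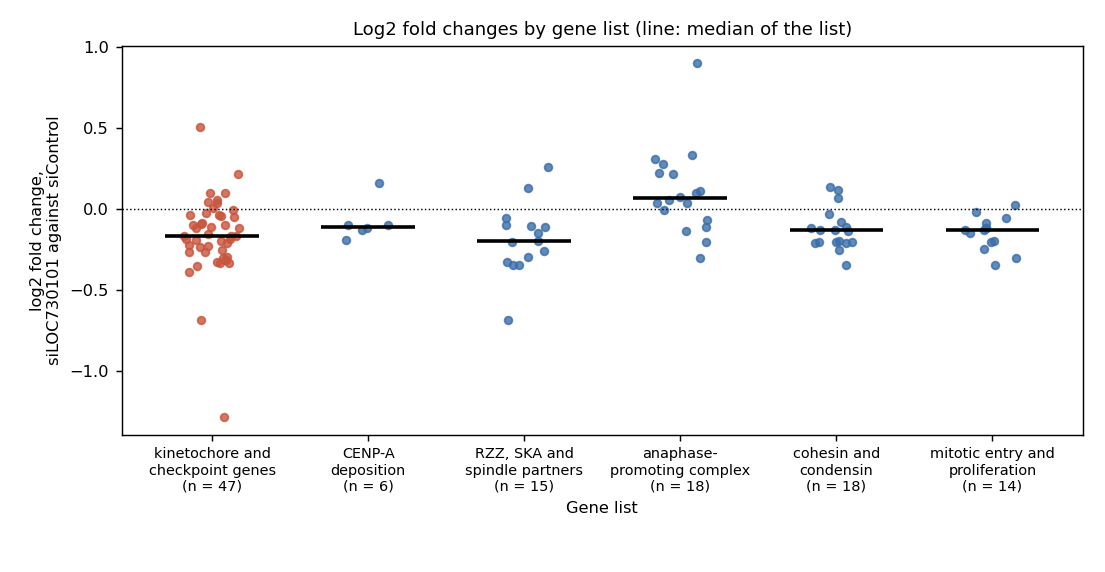
Log2 fold change of siLOC730101 over siControl (y axis) for each gene (points, spread sideways to be seen) of the kinetochore and checkpoint genes and of 5 lists of the same pathway (x axis), with a line at each list's median. The medians lie between -0.20 and -0.11 except that of the anaphase-promoting complex, at 0.065.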

How the data were processed

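Poly-A RNA of 4 DaroR libraries, 2 siControl and 2 siLOC730101, was measured by RNA-seq. The authors deposited raw counts per gene, made with featureCounts 2.0.1 over exons joined by gene name; the file header names gencode 41 on hg38 and no option for strand, read pairs or multiple overlaps, whereas the published methods name STAR with hg19. Without the option for pairs, both mates of a fragment are counted, so the counts may be about 2 times the fragments. Reads overlapping more than 1 gene are left out by default, which lowers genes that share exons. Of the 47 genes, 11 share 10% or more of their exon bases with other genes. CENPT (20.2%), CENPU (14.9%), PLK1 (12.8%) and BUB1B (10.2%) are among them.

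Counts were filtered with filterByExpr, scaled by TMM and tested with the quasi-likelihood test of edgeR 4.0.16, which left 19349 genes. DESeq2 1.42.0, other scalings, other filters and leaving out each library were alternatives. Totals ranged from 39213498 to 53368158 counts. The test was checked on simulated data.

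Per-library values were given for genes past the threshold, the 4 highest and 4 lowest log2 fold changes above 50 mean normalized counts, genes sharing exon bases and a fixed list of main components. The remaining genes were added to complete each complex, and KNTC1 from a pathway list, after their values were seen. The members, roles and pathway lists were chosen with earlier results of these data known. Promoter windows came from RefSeq on GRCh38.p14. CENPL, TPX2, BUB3, CENPJ, TTK, KNL1, CENPM, AURKA, BIRC5 and CENPH had no window. Some prostate markers of the list are not reported here.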

Additional observations from a re-analysis of the deposited data

How the results depend on the processing

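Of 610 pairs of a gene and an alternative, 586 kept the direction of the reported log2 fold change, and 32 of the 47 genes kept it under all 13 alternatives, 29 below and 3 above 0. None of the 47 genes passed the threshold in edgeR as reported, but 1 gene was called higher with no filter beyond 1 count, with DESeq2, without the legacy setting of glmQLFit, with halved counts and with a replicate block, and 0 to 1 when a library was left out, each time CENPX. SGO1 was the 1 gene called lower with the replicate block, which changed no call of another gene of the 47 than CENPX and SGO1. When a library was left out, 0 to 1 genes were called lower, CENPE without siLOC730101 replicate 1. Over all genes tested, 41 were called higher and 14 lower as reported, against 485 and 167 with the replicate block, 324 and 113 with no filter, 233 and 64 with DESeq2, 87 and 24 without the legacy setting, 93 and 30 with halved counts, 58 and 35 with library sizes alone, and 77 to 923 higher and 26 to 272 lower when a library was left out, where the lone library was assumed to vary like the other group. Of the genes of the pathway lists, 2 were called higher and 3 lower with no filter, 0 and 1 with DESeq2, 3 and 3 with the replicate block, and 3 and 6 without siLOC730101 replicate 1. Counts divided by 2 and rounded down were tried because mates of a pair may have been counted apart. The cause of these differences was not tested.

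The replicate numbers of the groups were not shown to pair the libraries, since the deviations of the libraries numbered 1 correlated at r = 0.029 across 14233 genes.

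Directions turned for PMF1 with library sizes alone (-0.0042), for CENPC with upper-quartile factors (-0.026), library sizes alone (-0.032), no filter (-0.00057) and halved counts (-0.0051), and for CENPV with the replicate block (0.017). The medians moved with library sizes alone to -0.14 for the inner kinetochore, -0.14 for CENP-A deposition, 0.028 for the anaphase-promoting complex, -0.17 for cohesin and condensin and -0.17 for mitotic entry. With upper-quartile factors they were -0.14 for CENP-A deposition and 0.034 for the anaphase-promoting complex, and with the replicate block -0.13 for CENP-A deposition.

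When each library was left out, the medians ranged from -0.21 to -0.11 for all 47 genes, -0.18 to -0.012 for the inner kinetochore, -0.21 to -0.028 for the KMN network, -0.27 to -0.057 for the checkpoint, -0.34 to -0.17 for the passenger complex and shugoshins, -0.13 to -0.095 for CENP-A deposition, -0.22 to -0.093 for the RZZ, SKA and spindle partners, 0.039 to 0.086 for the anaphase-promoting complex, -0.17 to -0.10 for cohesin and condensin and -0.17 to -0.088 for mitotic entry and proliferation. The log2 fold changes that turned ranged from -0.60 to 0.017 for CENPS, -0.013 to 0.086 for PMF1, -0.19 to 0.14 for CENPA, -0.094 to 0.10 for CENPC, -0.21 to 0.0054 for CENPU, -0.33 to 0.32 for CENPQ, -0.29 to 0.34 for CENPW, -2.42 to 0.065 for MAD1L1, -0.24 to 0.054 for ZWINT, -0.11 to 0.036 for BUB3, -0.43 to 0.072 for AURKB, -0.31 to 0.39 for CENPV, -0.27 to 0.028 for SPC24, -0.0088 to 0.20 for CENPB and -0.032 to 0.12 for CENPM. The genes above siControl in every library left numbered 4 to 11 of 47, against 32.9 to 35.9% of all genes tested, and those below it 26 to 35 of 47, against 35 to 36.5% of all genes. The counts of genes with separate groups under leave-one-out were chosen after seeing the data.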

Other observations

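Across the 47 genes, exon length and log2 fold change had a weak negative correlation. The Spearman correlation between the log2 exon length and the log2 fold change was -0.289 and the Pearson correlation -0.279. Without MAD1L1, whose level is uncertain, they were -0.261 and -0.25. Over the 19349 genes tested they were -0.056 and 0.033. The points share the same 4 libraries and the same scaling. The 15 shortest genes, with 854 to 2839 exon bases, had a median log2 fold change of -0.12, and 11 of them were below 0. The 16 longest, with 5517 to 13867 exon bases and with CENPF and CENPE among them, had a median of -0.25, and 13 were below 0. Of the genes between these lengths, only CENPB (0.10) was above 0, so that the share below 0 did not rise steadily with length.

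A few mitotic genes were listed at low levels and share much of their exon bases with another gene of the table on the same strand. NUSAP1, a microtubule bundling protein of the spindle, shares 81.4% of its exon bases with ENSG00000285920, and had a mean of 0.374 ± 0.257 (SD, n = 2) CPM in siControl and 0.449 ± 0.225 CPM in siLOC730101. PRC1, which bundles microtubules in anaphase, shares 57.6% with ENSG00000284946 and had means of 1.05 ± 0.313 and 0.657 ± 0.0349 CPM. MAD1L1, with 43.2% shared, had means of 0.664 ± 0.572 and 0.272 ± 0.212 CPM. The part of the shared bases in these levels was not tested.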
